A study of Drosophila melanogaster with 19 samples.

Results

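The genes described here are 34 genes of neuronal differentiation and synapse function, measured in the notum, the dorsal thorax of the Drosophila pupa in which sensory bristles form. They are a chosen list of textbook neuronal genes. A gene counted as measured where a probe set on the array was named for it alone, and where several were, the one brightest on average over 15 arrays (those that hold no zeros) stood for the gene. By this rule 30 of the 34 were measured, out of 11982 genes, while Syt1, Syx1A, Fas2 and scrt had no probe set named for them alone and are not analysed here. A gene was taken as expressed where its mean over the arrays with a value was above 6 on the log2 scale.

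Each of the 19 arrays held RNA of a pool of 8 to 12 whole notums, dissected at 16 h after puparium formation. All animals carried sca-Gal4, which drives transgenes in the pattern of the gene scabrous, and tub-Gal80ts, a ubiquitous temperature-sensitive Gal4 inhibitor. They were kept at 18 °C and moved to 29 °C for the 6 h before dissection. The controls carried UAS-GFPnls (GFP, 3 arrays). The other groups carried UAS-Ac (the proneural factor Achaete, 2 arrays), UAS-Sens (the zinc finger factor Senseless, 3 arrays), UAS-Ase (Asense, a factor of neural precursors, 3 arrays), UAS-E(spl)m3-HLH (m3, a bHLH repressor induced by Notch signalling, 3 arrays), UAS-Ac with UAS-Sens (Ac+Sens, 3 arrays) or UAS-Ase with UAS-E(spl)m3-HLH (Ase+m3, 2 arrays). Because RNA came from the whole notum, cells outside the driver's pattern are included, and fewer neurons cannot be told apart from less RNA per neuron.

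A Drosophila bristle organ arises from a precursor cell that proneural factors select and that then divides to give a neuron, its sheath and the outer support cells. A neuron first makes pan-neuronal regulators, such as the RNA-binding protein Elav, and surface receptors that guide its axon. The channels, transmitter enzymes and vesicle proteins that let it signal follow as it matures. Several guidance and secretion genes are also used by cells that are not neurons.

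Whole-array facts bear on what follows. On 4 arrays (replicate 3 of Sens, Ase, m3 and Ac+Sens), 60.3% to 60.6% of the 18769 probe sets were listed at exactly 0, and these entries were treated as missing. The array labelled Sens replicate 1 went against its label, with sens at 7.38 (7.15 to 7.55 on the GFP arrays, 10.76 and 10.75 on the other Sens arrays) and the proneural gene sc at 10.63 (6.95 to 7.28 in GFP). On the Ac arrays sc stood at 10.37 and 10.42, while ac stood at 6.74 and 6.87, within or near its GFP range of 6.63 to 7.27. The genes of the other transgenes did not stand out either. The level of ase was 5.45 and 5.68 on the Ase arrays with a value and 5.05 and 4.44 on the Ase+m3 arrays, against 5.15 to 5.58 in GFP. That of E(spl)m3-HLH was 11.06, 11.06 and 11.19 in m3 and 11.25 and 11.13 in Ase+m3, against 11.03 to 11.08 in GFP. So the Ac, Ase, m3 and Ase+m3 labels were not borne out by the levels of ac, ase and E(spl)m3-HLH, and whether these probe sets lie within the transgenes was not determined. The array Ase+m3 replicate 2 was unlike the rest: its rank correlation with each remaining array had a median (Spearman) of 0.890, where every other array reached 0.964 to 0.987. Of the other cell types the notum can hold, 4 of 4 measured glial markers, 4 of 4 muscle and myoblast markers, 4 of 4 epidermal markers, 2 of 2 fat body markers, 1 of 4 haemocyte markers and 0 of 1 tracheal markers had a mean above 6. The tracheal marker was btl alone (4.58). In a wider list used below, 4 tracheal genes had a mean level of 9.41 to 9.80 in GFP, and 4 haemocyte genes 6.90 to 7.05.

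At 16 h, elav, cpo, futsch and 4 of 5 measured guidance and adhesion genes had means above 6, while fne and nerfin-1 were dim. Most measured genes of vesicle release, channels and transmitters had lower means, but unc-13, Rop and nrv3 were above 6. Of the 30 genes, 10 (33.3%) had a mean above 6, against 5935 of 11982 genes (49.5%). Another 18 (60%) were listed at 0 on all 4 arrays with zeros, against 47.2% of all genes. Their means over the other 15 arrays ran from 2.32 to 4.68, and the highest single value among them was 5.51, for fne on GFP replicate 1. Nearest to the threshold, nrv3 (6.08) and cpo (7.71) lay inside it and Appl (5.92) and Ddc (5.71) outside. In GFP alone nrv3 had a mean of 6.56 and Appl of 6.57, while their medians over all arrays were 5.98 and 5.94. So whether nrv3 and Appl pass depends on the arrays used. At a threshold of 5 in place of 6, 12 genes passed, and at 7, 9 did. Of the neuronal marker genes in particular, elav, futsch and nrv3 passed and fne and nSyb did not.

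**Figure D1:**
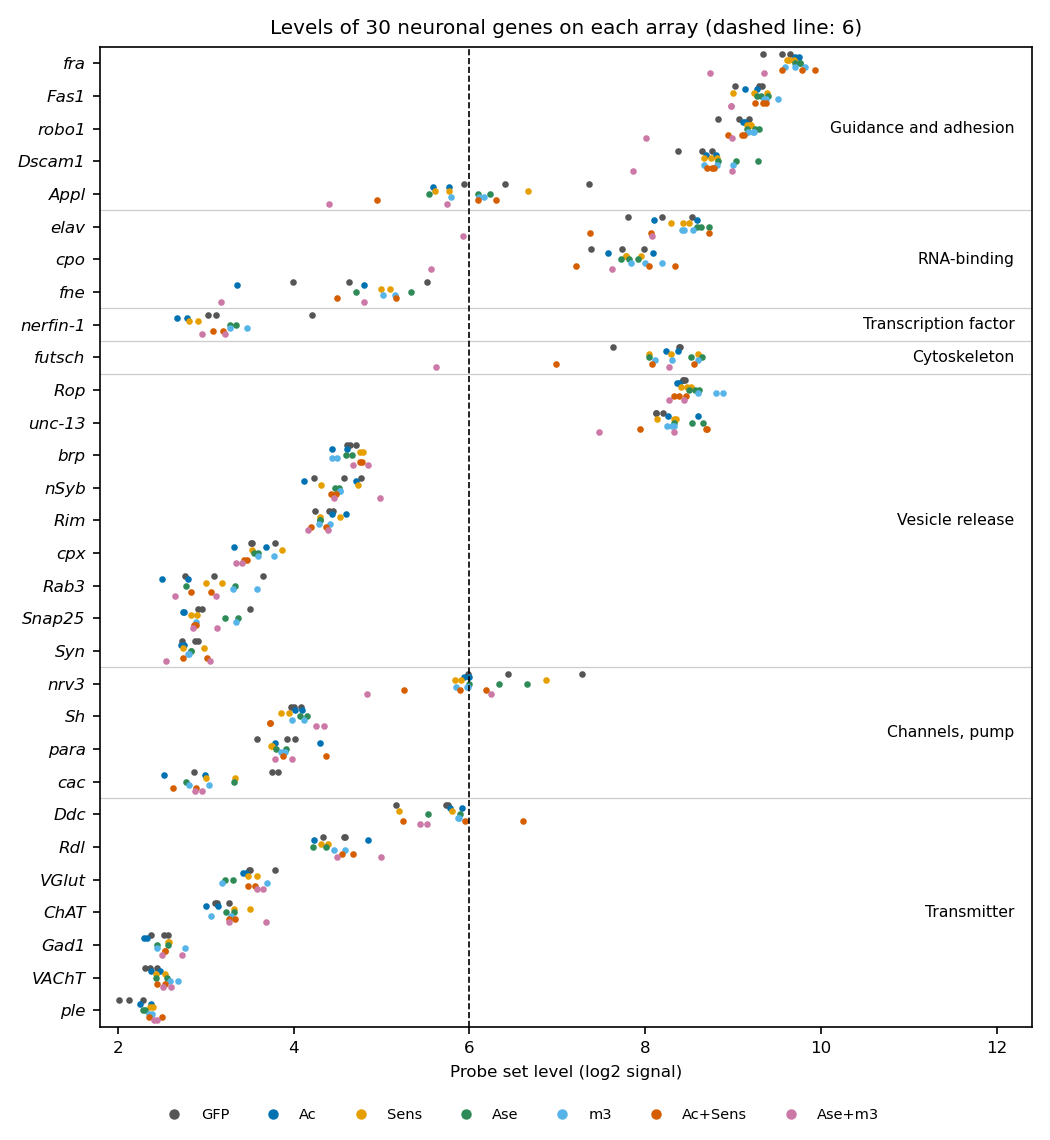
Level (log2 signal) of the 30 measured genes, 1 row per gene in groups by role, with 1 point per array coloured by group and shifted slightly by group; entries listed at 0 are not drawn. The dashed line marks 6: 4 of 5 guidance and adhesion genes lie to its right, and all 7 transmitter genes have means to its left.

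Among the pan-neuronal RNA-binding genes, elav, whose protein controls neuronal splicing and polyadenylation, had a mean of 8.21 ± 0.65 (SD, n = 19 arrays). The gene cpo (couch potato), which encodes an RNA-binding protein first known from the peripheral nervous system, had a mean of 7.71. The elav paralogue fne (found in neurons) had a mean of 4.68 over 15 arrays. The one measured neuronal transcription factor of the list, the zinc finger gene nerfin-1, stayed dim, at 2.68 to 4.20.

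Guidance and adhesion genes made up 4 of the 10 expressed genes. These were fra, the Netrin receptor Frazzled (9.61), robo1, a receptor for the midline repellent Slit (9.07), Dscam1, an immunoglobulin receptor of neurite self-recognition (8.75), and Fas1, a homophilic adhesion protein (9.25). The amyloid precursor homologue Appl had a mean of 5.92 and varied widely, from 4.40 on Ase+m3 replicate 2 to 7.36 on GFP replicate 1. The microtubule-associated gene futsch, a neuronal cytoskeleton gene, had a mean of 8.09. For futsch, the other 2 probe sets had means of 3.36 and 4.06 and were at 0 on the 4 arrays with zeros. So the probe sets of futsch did not report 1 level. The same held for Dscam1, whose other probe set had a mean of 3.67, and for cpo, whose others had means of 5.53 and 3.19.

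Of 9 measured genes of vesicle release, 2 were expressed. These were Rop, the Munc18 homologue that acts in secretion generally (8.49), and unc-13, a vesicle priming factor (8.30). The active zone genes brp and Rim had means of 4.65 and 4.36, the vesicle SNARE gene nSyb 4.52, the fusion clamp gene cpx 3.56, and Rab3, Snap25 and Syn 3.04, 3.01 and 2.82. Of 4 channel and pump genes, the sodium pump subunit gene nrv3 passed (6.08), while the potassium channel Sh (4.02), the sodium channel para (3.91) and the calcium channel cac (3.04) did not.

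None of the 7 transmitter genes passed. Ddc, the aromatic amino acid decarboxylase, came closest, with a mean of 5.71 over 16 arrays and a highest value of 6.61 on Ac+Sens replicate 2; it also serves cuticle hardening in the epidermis. The GABA receptor gene Rdl had a mean of 4.51. The cholinergic genes ChAT and VAChT had means of 3.26 and 2.49, the glutamate transporter VGlut 3.49, the GABA enzyme Gad1 2.52 and the tyrosine hydroxylase ple 2.32.

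The first comparisons asked whether any over-expressed factor changed these genes relative to GFP, and none of the 6 groups yielded a called gene. Calls are at an adjusted p under 0.05 in limma, with Benjamini-Hochberg adjustment over all 18769 probe sets, and all 6 comparisons share the same 3 GFP arrays. In Ac, 0 of 30 were called (background 0.218% of all probe sets), with 2 at an unadjusted p under 0.05 (4.99% of all probe sets). In Sens, 0 of 30 were called (background 0.277%), with 2 at an unadjusted p under 0.05 (9.39% of all probe sets), and leaving out the array labelled Sens replicate 1 gave 0 too. In Ase, 0 of 30 were called (background 1.24%), with 2 at an unadjusted p under 0.05 (14.6% of all probe sets). In m3, 0 of 30 were called (background 0.341%), with 3 at an unadjusted p under 0.05 (11.9% of all probe sets). In Ac+Sens, 0 of 30 were called (background 0.773%), with 3 at an unadjusted p under 0.05 (12.5% of all probe sets). In Ase+m3, 0 of 30 were called (background 2.31%), with 10 at an unadjusted p under 0.05 (24.5% of all probe sets). Without Ase+m3 replicate 2 the dim gene ChAT was called higher, but on 1 remaining Ase+m3 array. ChAT was at 3.69 on that array and 3.27 on replicate 2, against 3.11 to 3.26 in GFP, and at 0 on the 4 arrays with zeros.

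The median difference of the 10 expressed genes from GFP was 0.14 in Ac, 0.14 in Sens, 0.22 in Ase, 0.20 in m3, 0.07 in Ac+Sens and −0.50 in Ase+m3, against 0.02, 0.06, 0.11, 0.09, −0.01 and −0.04 over all probe sets with a mean above 6. Without Ase+m3 replicate 2 the median of the 10 genes in Ase+m3 was −0.06. The medians moved again when GFP replicate 2 and Ac+Sens replicate 3 were left out too, a setting chosen after seeing the data. They were then −0.02 in Ac, 0.04 in Sens, 0.12 in Ase, 0.11 in m3, 0.04 in Ac+Sens and −0.19 in Ase+m3. Precision differed between genes. The 95% confidence interval of Rop in Ase ran from −0.05 to 0.29, while that of elav in Ac+Sens ran from −0.97 to 0.73. A missing call therefore does not show that a gene kept its level.

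**Figure D2:**
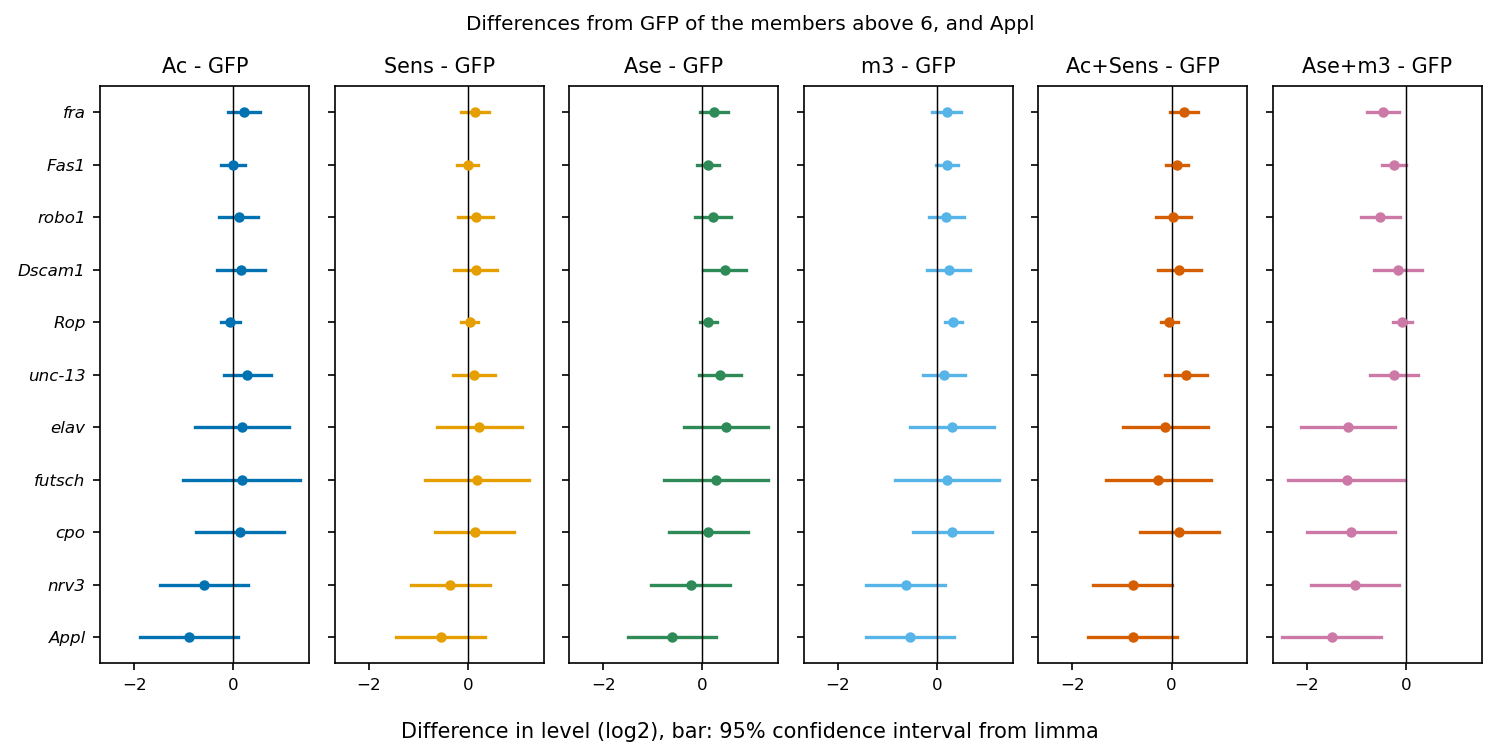
Difference from GFP (log2) of the 10 genes with a mean above 6 and of Appl, 1 panel per over-expression group; points are limma estimates and bars 95% confidence intervals before adjustment. In the Ase+m3 panel all 10 expressed genes lie below 0, and the intervals of elav, futsch, cpo, nrv3 and Appl are the widest.

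The vesicle gene Rop came nearest to a call in m3. Its level was 8.43, 8.43 and 8.45 on the GFP arrays and 8.60, 8.88 and 8.81 on the m3 arrays. It was 8.36 and 8.39 in Ac, 8.52, 8.48 and 8.41 in Sens, 8.50, 8.61 and 8.56 in Ase, 8.32, 8.38 and 8.47 in Ac+Sens, and 8.45 and 8.27 in Ase+m3. The m3 and GFP arrays did not overlap, as was the case for 31.9% of all probe sets. The difference of 0.33 (SE 0.08) had an adjusted p of 0.105 in limma, and Rop was not called against GFP.

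Across all groups, the moderated F test called 0 of the 30 genes (background 2.75%), with 6 at an unadjusted p under 0.05 (24.3% of all probe sets). The lowest adjusted p belonged to the channel gene Sh (0.0604 in limma), which was dim on every array where it had a value. Sh was at 4.01, 3.97 and 4.08 in GFP, 4.09 and 4.02 in Ac, 3.86 and 3.94 in Sens, 4.08 and 4.15 in Ase, 3.98 and 4.11 in m3, 3.73 and 3.73 in Ac+Sens, and 4.35 and 4.25 in Ase+m3. Its Ac+Sens arrays lay below all others and its Ase+m3 arrays above all others. Sh has 7 probe sets and brp 4, and only the brightest of each is shown here. The active zone gene brp, also dim, was at 4.61 to 4.70 in GFP, 4.44 to 4.60 in Ac, 4.76 to 4.79 in Sens, 4.60 to 4.67 in Ase, 4.44 to 4.49 in m3, 4.75 to 4.78 in Ac+Sens and 4.68 to 4.84 in Ase+m3 (adjusted p of F = 0.189 in limma).

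Adding Sens to Ac, or Ac to Sens, gave no called gene. In Ac+Sens against Ac 0 of 30 were called (background 0.0799%), with 2 at an unadjusted p under 0.05 (9.8% of all probe sets). In Ac+Sens against Sens 0 of 30 were called (background 0.0533%), with 0 at an unadjusted p under 0.05 (7.93% of all probe sets). The interaction of Ac and Sens, which asks whether adding Sens to Ac had another effect than Sens alone, was called for 0 of 30 (background 0.0426%), with 1 at an unadjusted p under 0.05 (6.21% of all probe sets). Each of the 3 counts was also 0 without the array labelled Sens replicate 1.

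The called differences all lay in comparisons of Ase+m3 with its single factors, were all toward lower levels in Ase+m3, and none of them remained when Ase+m3 replicate 2 alone was left out. When GFP replicate 2 and Ac+Sens replicate 3 were left out with it, a setting chosen after seeing the data, fra was called against Ase (adjusted p = 0.0459 in limma). They were also lost without other arrays: none of the 30 genes was called against Ase without any 1 of the 3 Ase arrays, and none against m3 without m3 replicate 2 or m3 replicate 3. Against Ase, 3 of 30 genes (fra, robo1 and elav) were called lower, where 4.3% of all probe sets were called lower and 5.6% in either direction. Against m3, 4 of 30 (fra, Fas1, robo1 and Rop) were called lower, where 4.03% were called lower and 6.56% in either direction. Of the 19 fits that left out 1 array each, 15 kept the call against Ase for fra, 8 for robo1 and 4 for elav. The call against m3 was kept in 16 for Rop, 15 for fra, 7 for Fas1 and 7 for robo1. The median difference of the 10 expressed genes was −0.72 against Ase and −0.55 against m3, beside −0.14 and −0.12 over all probe sets with a mean above 6. Without Ase+m3 replicate 2, 0 of the 30 were called in either comparison, and the medians were −0.19 and −0.27. The direction turned under 1 scaling, limma's own quantile normalization, which spreads the measured values of arrays with zeros over the whole range. There none of the 30 was called, and the differences of robo1 from Ase (0.09) and of Fas1 (0.28), robo1 (0.15) and Rop (0.69) from m3 had the opposite sign. Standard errors were wide there, at 1.29 for Rop from m3. Over 32 alternative settings the sign turned in 1 for robo1 and Rop and in 2 for Fas1.

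The Netrin receptor gene fra stood at 9.56, 9.33 and 9.65 in GFP, 9.70 and 9.75 in Ac, 9.62, 9.64 and 9.69 in Sens, 9.76, 9.70 and 9.76 in Ase, 9.59, 9.70 and 9.82 in m3, 9.79, 9.94 and 9.55 in Ac+Sens, and 9.35 and 8.74 in Ase+m3. Both Ase+m3 arrays lay below every Ase and m3 array, and replicate 2 lay below all other arrays. The difference was −0.70 (SE 0.15, adjusted p = 0.0266 in limma) from Ase and −0.66 (SE 0.15, adjusted p = 0.0287) from m3. Without Ase+m3 replicate 2 it was −0.39 (adjusted p = 0.142) and −0.35 (adjusted p = 0.151).

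The Slit receptor gene robo1 stood at 9.06, 8.83 and 9.18 in GFP, 9.14 and 9.11 in Ac, 9.19, 9.15 and 9.20 in Sens, 9.30, 9.16 and 9.25 in Ase, 9.23, 9.24 and 9.17 in m3, 9.10, 9.12 and 8.94 in Ac+Sens, and 8.99 and 8.01 in Ase+m3. The array at 8.01 was replicate 2, while replicate 1 lay between the GFP arrays. The difference was −0.73 (SE 0.19, adjusted p = 0.0389 in limma) from Ase and −0.71 (SE 0.19, adjusted p = 0.0408) from m3. Without replicate 2 it was −0.25 (adjusted p = 0.276) and −0.22 (adjusted p = 0.292).

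The pan-neuronal gene elav stood at 8.19, 7.80 and 8.53 in GFP, 8.11 and 8.59 in Ac, 8.50, 8.29 and 8.43 in Sens, 8.58, 8.63 and 8.73 in Ase, 8.42, 8.44 and 8.55 in m3, 8.72, 8.07 and 7.37 in Ac+Sens, and 8.07 and 5.92 in Ase+m3. The 3 lowest values were those of Ase+m3 replicate 2, Ac+Sens replicate 3 and GFP replicate 2. The difference of Ase+m3 from Ase was −1.65 (SE 0.45, adjusted p = 0.0456 in limma), and −0.57 (adjusted p = 0.393) without Ase+m3 replicate 2. From m3 it was −1.47 (SE 0.45, adjusted p = 0.0554), which was not called.

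The adhesion gene Fas1 differed from the other called genes in that both Ase+m3 arrays gave nearly the same value. It stood at 9.33, 9.02 and 9.29 in GFP, 9.14 and 9.27 in Ac, 9.00, 9.24 and 9.38 in Sens, 9.32, 9.27 and 9.39 in Ase, 9.35, 9.51 and 9.37 in m3, 9.38, 9.34 and 9.25 in Ac+Sens, and 8.97 and 8.98 in Ase+m3. The Ase+m3 arrays lay below all other arrays, GFP replicate 2 (9.02) and the array labelled Sens replicate 1 (9.00) being the nearest. The difference from m3 was −0.44 (SE 0.11, adjusted p = 0.0416 in limma). It was −0.44 (adjusted p = 0.0874) without Ase+m3 replicate 2, of the same size but no longer called. With the trend over gene length removed it was 0.03 (adjusted p = 0.917).

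For Rop, whose values are given above, the difference of Ase+m3 from m3 was −0.40 (SE 0.09, adjusted p = 0.0286 in limma), and −0.32 (adjusted p = 0.0981) without Ase+m3 replicate 2. Rop in Ase+m3 did not pass the test against GFP (−0.07, SE 0.09, adjusted p = 0.626). The m3 arrays, at 8.60 to 8.88, were the high ones in this comparison.

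The interaction of Ase and m3, which sets the effect of adding m3 to Ase against that of m3 alone, was called lower for 2 of 30 genes, fra and Rop, where 3.27% of all probe sets were called lower and 3.95% in either direction. It was −0.89 (SE 0.20, adjusted p = 0.0355 in limma) for fra and −0.52 (SE 0.12, adjusted p = 0.0356) for Rop. Without Ase+m3 replicate 2 it was −0.58 (adjusted p = 0.0780) and −0.44 (adjusted p = 0.0839), and neither was called. Under limma's own quantile normalization both had the opposite sign, 0.31 (SE 0.82) for fra and 1.75 (SE 1.73) for Rop, and neither was called. With standard errors of that size this setting cannot decide the sign. Over 32 alternative settings the sign turned in 1 for each gene.

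**Figure D3:**
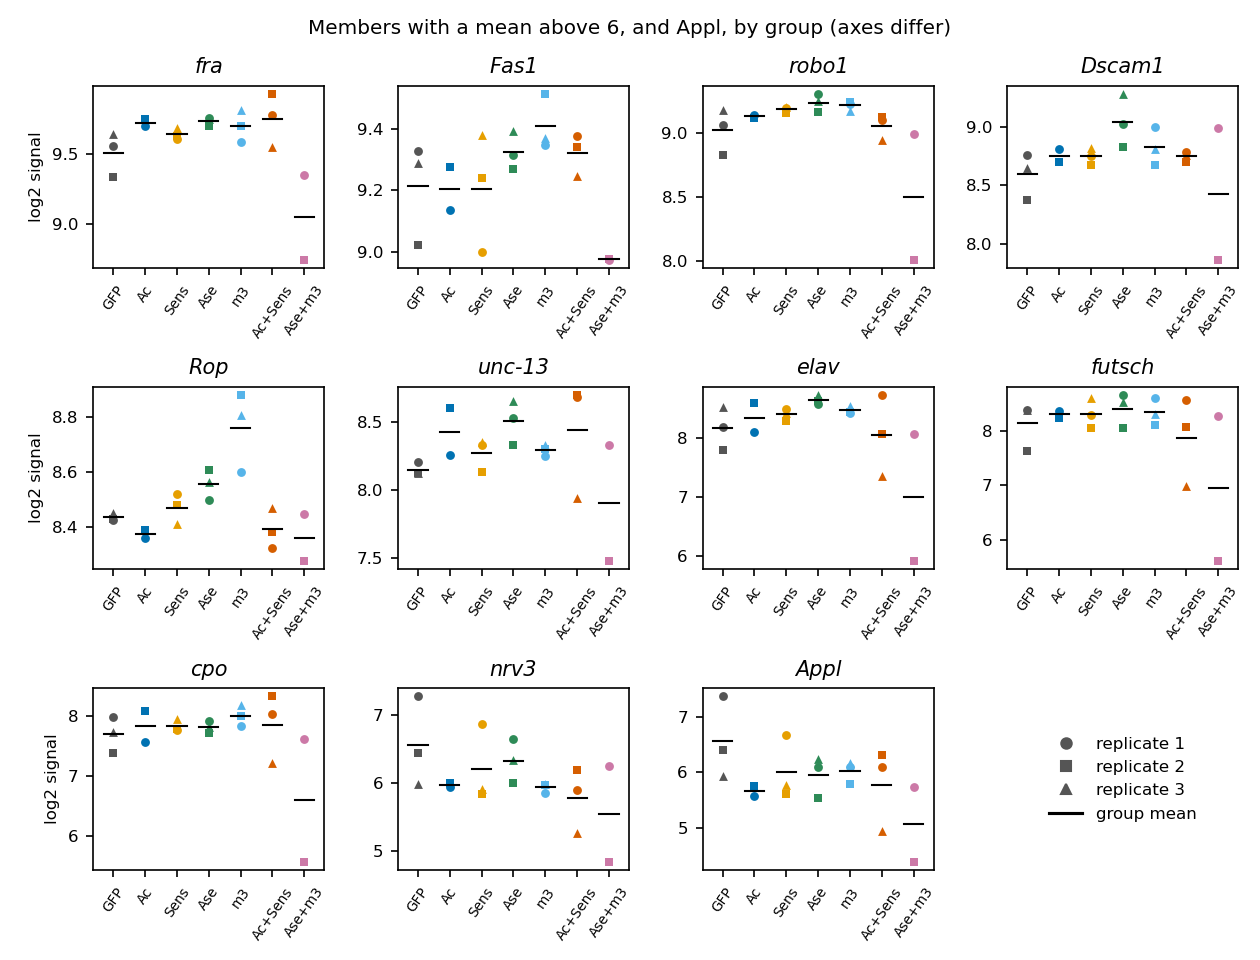
Level (log2 signal) of the 10 genes with a mean above 6 and of Appl in the 7 groups; marker shapes are replicates, black lines are group means and the vertical axes differ. Ase+m3 replicate 2 (pink square) is the lowest array for 10 of the 11 genes, and for Fas1 both Ase+m3 arrays lie together at 8.97 and 8.98.

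The low values of Ase+m3 replicate 2 ran through the whole list. Of the 11 genes with a value on every array (the 10 expressed genes and Appl), 10 had their lowest level there, the exception being Fas1, and 11 of 11 lay below the median array. The median deviation of these 11 genes was −1.14, with −2.68 for futsch as the lowest and −0.18 for Rop as the highest. For futsch the level was 8.27 on replicate 1 and 5.62 on replicate 2, for cpo 7.62 and 5.57, and for nrv3 6.24 and 4.83. The Dscam1 level was 8.99 and 7.86, and that of unc-13 8.33 and 7.48.

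On this array, levels moved with gene length, and these neuronal genes are long. The median length of the transcription unit was 29299 bases for the 30 genes and 24833 for the 10 expressed ones, against 2263 for all genes and 2781 for all expressed genes. Of the 11 genes with a value on every array, 10 fell into the longest of 4 length classes of genes (6194 bases or more), and the remaining one, Rop (2638 bases), had the smallest deviation. The median deviation of Ase+m3 replicate 2 over all genes was 0.32 for genes of the shortest class but −0.80 for those of the longest. With the trend over length removed on each array, the 11 genes deviated by −0.41 in the median, and 0 of the 9 calls remained. The differences themselves did not shrink alike. From Ase, fra stood at −0.05, robo1 at −0.34 (adjusted p = 0.0814 in limma) and elav at −1.17 (adjusted p = 0.0750). From m3, fra stood at −0.04, Fas1 at 0.03, robo1 at −0.34 (adjusted p = 0.0801) and Rop at −0.28 (adjusted p = 0.0768). The interaction was −0.03 for fra and −0.30 for Rop (adjusted p = 0.171).

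**Figure D4:**
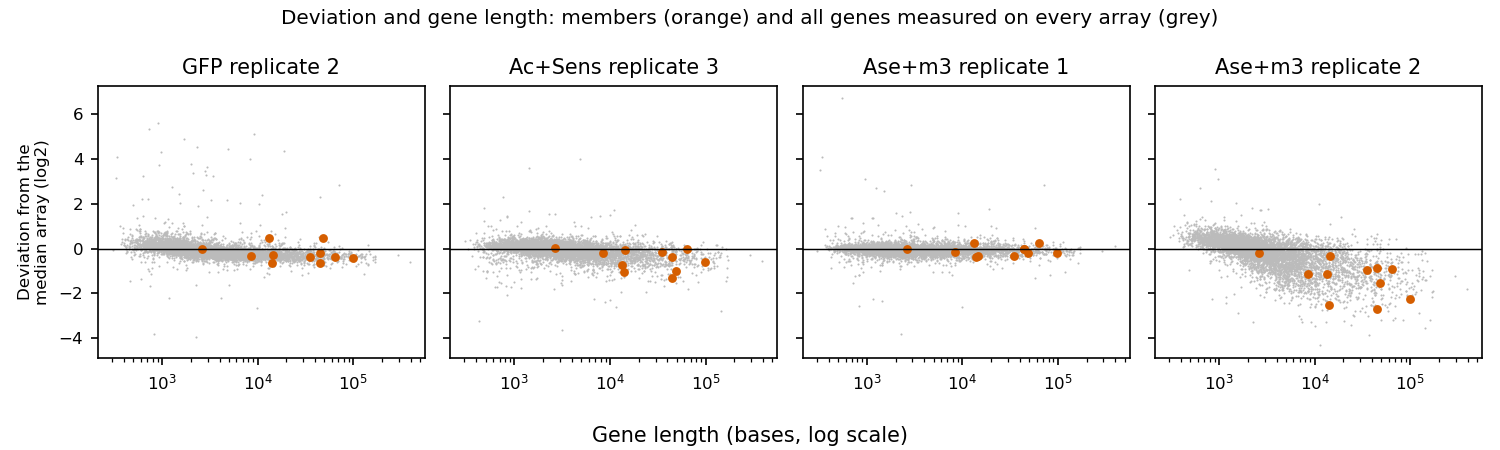
Deviation of each gene from the median array (log2) against gene length (bases, log scale) on 4 arrays; grey points are genes measured on every array and orange points the 11 neuronal genes. On Ase+m3 replicate 2 long genes lie low and the neuronal genes lie at −0.18 to −2.68, while on Ase+m3 replicate 1 the longest length class has a median of −0.07.

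Smaller deviations of the same kind were found on 2 other arrays. On Ac+Sens replicate 3 the 11 genes had a median deviation of −0.38, and the longest class of all genes −0.22. On GFP replicate 2 these were −0.33 and −0.28. On Ase+m3 replicate 1 they were −0.16 and −0.07. RNA quality values were not used here, and the part of RNA quality in these deviations was not tested.

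Markers of other cell types differed in how the Ase+m3 arrays lay against GFP. These lists are wider than the markers counted above and hold only genes with a value on every array. The mean level of 13 muscle and myoblast genes was 7.24 to 8.72 on the Ase+m3 arrays against 8.23 to 8.62 in GFP, and that of 10 epidermal genes 7.63 to 8.44 against 8.42 to 8.72. The mean level of 8 glial genes was 8.00 to 8.13 against 8.09 to 8.39, and that of 4 tracheal genes 9.11 to 9.37 against 9.41 to 9.80. That of 4 haemocyte genes was 6.34 to 7.28 against 6.90 to 7.05. The mean level of 5 fat body genes, 9.30 to 10.13 against 8.69 to 9.81, was not below the GFP range on either array. Their part in the neuronal differences was not tested.

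A wider list of 111 other neuronal genes, of which 91 were measured and 37 had a mean above 6, gave a few calls. Against GFP 0 were called in Ac, Sens and Ac+Sens (background 0.218%, 0.277% and 0.773% of all probe sets), with 4, 10 and 12 at an unadjusted p under 0.05, where 4.99%, 9.39% and 12.5% of all probe sets passed. In Ase 2 rose (background 1.24%). The vesicular monoamine transporter gene Vmat had a mean level of 5.73 ± 0.05 (SD, n = 3) in the controls and of 6.66 ± 0.05 (SD, n = 3) with Ase, a difference of 0.93 (SE 0.18, adjusted p = 0.0234 in limma), and the dim glutamate receptor gene GluRIIB rose by 0.57 (SE 0.10, adjusted p = 0.0150). Leaving out any single GFP or Ase array ended the Vmat call, and leaving out GFP replicate 2 or Ase replicate 1 that of GluRIIB. In m3 (background 0.341%) the receptor tyrosine phosphatase gene Ptp69D, which acts in axon guidance, rose from 7.27 ± 0.08 (SD, n = 3) to 8.02 ± 0.06 (SD, n = 3), a difference of 0.76 (SE 0.14, adjusted p = 0.0201 in limma). Leaving out any single m3 array, or the first or the second GFP array, ended this call.

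In Ase+m3 1 of these genes rose and 3 fell against GFP (background 2.31%). The dim acetylcholine receptor gene nAChRalpha5 rose by 0.57 (SE 0.13, adjusted p = 0.0499 in limma), and by 0.70 (adjusted p = 0.0270) without Ase+m3 replicate 2, but its call was kept in only 2 of the 19 fits that left out 1 array each. The genes that fell were the ankyrin gene Ank2 (−1.82, adjusted p = 0.0339), the receptor phosphatase gene Lar (−0.93, adjusted p = 0.0367) and the potassium channel gene sei (−0.62, adjusted p = 0.0450). Without Ase+m3 replicate 2 none of these 3 was called, with differences of −1.10 (adjusted p = 0.137), −0.37 (adjusted p = 0.142) and −0.33 (adjusted p = 0.209) in limma. Over the 19 fits the Ank2 call was kept in 14, that of Lar in 9 and that of sei in 6, and each was also lost without GFP replicate 1 or GFP replicate 3.

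Genes of the sensory organ precursor, the cell that gives rise to the bristle neuron, were measured in the same fit. Of 17 measured precursor genes, 1 rose in Ac, 1 in Sens, 3 in Ase, 8 in Ac+Sens and 1 in Ase+m3, and 1 fell in Ac+Sens; the shares of all probe sets called there were 0.218%, 0.277%, 1.24%, 0.773% and 2.31%. In m3 limma called 0 (background 0.341%), with 3 at an unadjusted p under 0.05. The list includes genes carried as transgenes. The gene phyl, an adaptor that targets the repressor Tramtrack for degradation, rose by 2.19 (SE 0.21, adjusted p = 2.96e-05 in limma) in Ase and by 2.33 (SE 0.21, adjusted p = 2.22e-05) in Ac+Sens. It also rose by 1.35 (adjusted p = 0.0289 in limma) in Ac, by 1.27 (adjusted p = 0.0182) in Sens and by 2.15 (adjusted p = 2.1e-04) in Ase+m3. The Sens difference includes the array labelled Sens replicate 1, which had phyl at 6.98. The other Sens arrays had phyl at 6.70 and 6.39, and the GFP arrays at 5.21 to 5.81. Of 10 measured genes of ciliated mechanosensory neurons, 0 had a mean above 6 and 0 were called against GFP in any of the 6 groups, with 0 to 2 per group at an unadjusted p under 0.05.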

How the data were processed

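The authors deposited log2 probe set signals of 19 Affymetrix arrays in 1 table, made with RMA per the submitters' processing notes; its version and the origin of the zeros on 4 arrays are not stated there. Groups and replicate numbers come from the sample titles. Arrays were called biological replicates in the labels' protocols. Depth does not apply to arrays, and precision is limited by their number.

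Gene names came from GEO's platform annotation: of 18769 probe sets, 13647 name 1 gene, 402 several (not used) and 4720 none here. Gene lengths came from a RefSeq table and symbols needed 0 updates. Differences were fitted in limma 3.58.1 (R 4.3.3) on all arrays with 7 group means, zeros missing and no filter. P-values are two-sided, adjusted by the Benjamini-Hochberg method over all probe sets of a comparison. An adjusted p beside a small n comes from this model. The fit was tested on simulated data, with 50 probe sets changed per size. Of true log2 rises of 0.5 against GFP, 30% were called in Ac+Sens and 28% in Ase+m3. These shares were 88% and 92% for rises of 1, and 84% and 76% for falls of 1.

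The 34 genes, the other lists and the tests were chosen with earlier results of these data known. Full values are given for genes called in any comparison, filled to 8 by the smallest p of the F test, and for other lists up to 3 called genes per comparison with GFP. Deviations of same-numbered arrays correlated at −0.42 to 0.55 (median −0.003, 52 pairs, 15 above 0.1). Those of other pairs correlated at −0.71 to 0.71 (median 0.007, 102 pairs, 31 above 0.1), so numbers were not used to pair the arrays. The zeros lay only on arrays numbered 3, though not on that of GFP, and whether the numbers mark batches was not tested. Alternatives covered filters, scaling, the spread estimate, gene length, a replicate block and left-out arrays. Of the 3 quantile settings, 2 were added after the counts of the first were seen. Sequences and promoter motifs were not analysed here.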

Additional observations from a re-analysis of the deposited data

Results flagged for a closer look

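The interaction of Ase and m3 was called by limma's test for 2 of the 30 neuronal genes, both lower. Of all probe sets, 3.27% were called lower and 3.95% in either direction. It was −0.89 for fra, the Netrin receptor gene, and −0.52 for Rop, the Munc18 homologue, which means that the difference between Ase+m3 and Ase was lower than the difference between m3 and GFP. Neither was called without Ase+m3 replicate 2. Over 32 alternative settings the call was kept in 13 for fra and in 14 for Rop, and the sign turned in 1 setting for each.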

How the results depend on the processing

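Counts are of probe sets called, over all genes unless the neuronal genes are named. In the order Ac, Sens, Ase, m3, Ac+Sens and Ase+m3 against GFP, Ac+Sens against Ac and against Sens, Ase+m3 against Ase and against m3, the Ac by Sens interaction, the Ase by m3 interaction and the F test, they were 41, 52, 233, 64, 145, 433, 15, 10, 1051, 1231, 8, 741 and 516. Over the fits that left out 1 array each they ran from 8 to 53, 16 to 68, 84 to 501, 32 to 154, 50 to 261, 92 to 2901, 3 to 62, 3 to 14, 35 to 3435, 39 to 3281, 7 to 19, 38 to 3409 and 236 to 3480. For the neuronal genes these counts ran from 0 to 8 in Ase+m3 against GFP, 0 to 8 against Ase, 0 to 9 against m3, 0 to 9 for the Ase by m3 interaction and 0 to 8 for the F test, and were 0 in the other 8 tests. The upper ends of these 5 came without Ase+m3 replicate 1; where 1 Ase+m3 array is left, it is assumed to vary like the other groups. In the order Ase, m3 and interaction the neuronal counts, 3, 4 and 2 with all arrays, were 0, 0 and 0 without Ase+m3 replicate 2, 0, 2 and 0 without any 1 Ase array, 1, 1 and 1 without m3 replicate 1, 1, 0 and 0 without m3 replicate 2 or replicate 3, 1, 2 and 0 without GFP replicate 1 or Sens replicate 2, 1, 3 and 2 without Sens replicate 1 or replicate 3, 2, 2 and 2 without Ac+Sens replicate 2, and 3, 6 and 3 without Ac+Sens replicate 3; the interaction count was 0 without GFP replicate 2 and 3 without GFP replicate 3. Without Ase+m3 replicate 2, the dim gene ChAT was called higher than GFP, with a difference of 0.52 that rested on 1 Ase+m3 array.

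Counts that moved by over 1.5 times were as follows, and the causes were not tested. With only probe sets measured on all arrays they were 20 in Ac, 22 in Sens, 118 in Ase, 22 in m3, 72 in Ac+Sens, 77 in Ase+m3, 2 in Ac+Sens against Ac, 3 against Sens, 4 for Ac by Sens, 1351 for Ase by m3 (5 neuronal genes) and 179 for F. With a mean above 6 they were 15, 18, 109, 17, 67, 73, 3, 4, 2, 1385 (5 neuronal genes) and 178 in the same order; both settings test fewer probe sets. With only the groups compared in the fit they were 22 in Ac, 19 in Sens, 31 in Ac+Sens, 8 in Ase+m3, 5 in Ac+Sens against Ac, 1 against Sens, 6 in Ase+m3 against Ase, 0 against m3 and 37 for Ase by m3, with 0 neuronal genes in the last 3.

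Quantile normalization was run in 3 ways. The first, planned, was limma's own, which spreads the measured values of arrays with zeros over the whole range. It gave 1 in Ac, 0 in Sens, 0 in Ase, 6 in m3, 2 in Ac+Sens, 4 in Ase+m3, 1 in Ac+Sens against Ac, 0 against Sens, 4 in Ase+m3 against Ase, 1 against m3, 1 for each interaction and 7 for F, with 0 neuronal genes. The opposite signs it gave were 0.090 for robo1 from Ase, 0.28, 0.15 and 0.69 for Fas1, robo1 and Rop from m3, and 0.31 and 1.75 for fra and Rop in the interaction. The second was added after these counts were seen. It mapped each array through the probe sets measured on all arrays, and gave 26, 20, 68, 20, 52 and 1471 against GFP, 3 and 3 for Ac+Sens, 29 and 12 for Ase+m3 against its factors, 5 and 7 for the interactions and 110 for F. It called 3 dim neuronal genes higher in Ase+m3 than in GFP (Rdl, brp and nSyb) and 0 in Ase+m3 against Ase, against m3 and in the interaction. The other added one was written after the 1471 calls were seen and ranked zeros lowest. It gave 55 in Ac+Sens against Ac, 326 and 370 in Ase+m3 against Ase and m3, 4 and 150 for the interactions, and 1, 0 and 0 neuronal genes in Ase+m3 against Ase, against m3 and in the interaction. So the number of calls depends on how zeros are treated in scaling, and no neuronal call was kept under all 3.

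Without the 4 arrays that hold zeros, counts were 23 in Ac, 90 in Ac+Sens, 8 in Ac+Sens against Ac, 85 and 162 in Ase+m3 against Ase and m3, 36 for Ase by m3 and 245 for F, with 0 neuronal genes. Without Sens replicate 1 and Ase+m3 replicate 2 together they were 422 in Ase, 109 in m3, 240 in Ac+Sens, 1010 in Ase+m3 (1 neuronal gene, ChAT), 75 and 17 in Ac+Sens against Ac and Sens, 488 in Ase+m3 against Ase, 16 and 364 for the interactions and 792 for F, with 0 neuronal genes in Ase+m3 against Ase, against m3 and in the interaction. With the length trend removed they were 98 in m3, 42 and 17 in Ac+Sens against Ac and Sens, 304 and 266 in Ase+m3 against Ase and m3 and 143 for Ase by m3, with 0 neuronal genes, and Fas1 from m3 turned to 0.030. A setting chosen after seeing the data left out GFP replicate 2, Ac+Sens replicate 3 and Ase+m3 replicate 2 together. It gave 1541 in Ase+m3, 77 and 16 in Ac+Sens against Ac and Sens, 432 for Ase by m3 and 1332 for F. It called 1 neuronal gene (fra) in Ase+m3 against Ase, 0 against m3 and in the Ase by m3 interaction, and 1 (Sh) by F.

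With the replicate number as a block, which the data do not support as a pairing, counts were 93 in Ac+Sens, 121 in Ase+m3, 6 in Ac+Sens against Ac, 502 and 346 in Ase+m3 against Ase and m3, 247 for Ase by m3 and 284 for F, and the neuronal genes called were 2, 0 and 0 in the last 3 comparisons of Ase+m3.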

Other observations

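Appl and nrv3, both near the threshold of 6, were highest on GFP replicate 1 (7.36 and 7.28), while the array labelled Sens replicate 1 had 6.67 and 6.87. The ankyrin gene Ank2 was also highest on these arrays, at 6.32 and 5.71, against 3.06 to 5.52 on the others. These values were picked out after the data were seen.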
